A study of Mus musculus with 12 samples.

Results

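The genes described are 9 chains of cytokine receptors in CD8+ T cells: Il12rb1, Il12rb2, Il18r1, Il18rap, Il27ra, Il6st, Il10ra, Ifngr1 and Tgfbr2, out of 55536 annotated genes in the count table. They were chosen by name, with earlier results of these same libraries known, so the gene levels below are among the values the choice rested on. Their levels, fold changes and calls are therefore a description and carry no p-value. All 9 passed the filter on low counts, which kept 18817 genes.

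RNA was sequenced from OT-I CD8+ T cells, which carry a transgenic receptor for an ovalbumin peptide, on the OT-1 Tg C57BL/6J background. In 5 Ag libraries the cells had been transferred into C57BL6/J recipients given the SIINFEKL peptide with control rat IgG. In 5 Ag+Costim libraries the recipients had received the peptide with agonist antibodies against CD134 (OX40) and CD137 (4-1BB). The 2 Naive libraries came from OT-I mice without transfer. The donors in the study's methods lacked Rag1 or Rag2, the labels put the harvest at day 4, and cells of spleen and lymph nodes were sorted as CD8+ cells bearing the transgenic receptor. The labels give no age, and all groups shared the same single antigen specificity. The study describes its RNA-seq replicates as biological ones, while the labels do not tie the libraries to single animals, so p-values measure the spread between these libraries.

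Cytokine receptors of this kind work as pairs of chains, of which 1 mainly binds the ligand and the other mainly passes on the signal through Janus kinases and STAT factors, through MyD88 (IL-18) or through SMAD factors (TGF-beta). In CD8+ T cells, IL-12 and IL-18 are known as inflammatory signals that support interferon-gamma production. IL-10 and above all TGF-beta are known for limiting responses, and the interferon-gamma receptor lets the cells sense their own product.

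Library totals ran from 39994606 to 49258758 counts apart from replicate 4 of Ag, which held 23976932. The 12 T cell markers summed to 17657 to 18722 CPM (counts scaled to the library total) in Naive, 16427 to 20813 in Ag and 7580 to 10069 in Ag+Costim, and Cd4 stayed at or under 2.39 CPM in every library. Other marker sums moved with the groups. Erythroid markers (6 genes) held 168 to 2314 CPM in Naive, 588 to 6726 in Ag and 14.0 to 211 in Ag+Costim. NK cell markers (4 genes) held 15.4 to 17.3, 7.41 to 22.1 and 1.16 to 3.89 CPM in the same order. B cell markers (8 genes, of which Pax5 was at 0 in Naive) held 1227 to 1233, 1230 to 1772 and 589 to 1183 CPM, most of it Ighm. Myeloid and dendritic cell markers (13 genes, of which Siglech was at 0 in Naive and Ag) held 127 to 234, 268 to 410.3 and 226 to 413 CPM. Proliferation markers (6 genes) held 30.7 to 32.9, 343 to 725 and 1658 to 2162 CPM. The part of these differences in the receptor levels was not tested, and in sorted bulk samples a change in the share of expressing cells cannot be told apart from a change in RNA per cell.

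The sequences shown first are those that separate the receptor isoforms measured below, taken from GENCODE vM21 transcripts on mm10, 5′ to 3′ on the gene's strand. Each is a coding stretch that 1 isoform holds and the other lacks.
Il12rb1 exon, chr8:70819325-70819421, plus strand, held by Il12rb1-201 and lacking in Il12rb1-205: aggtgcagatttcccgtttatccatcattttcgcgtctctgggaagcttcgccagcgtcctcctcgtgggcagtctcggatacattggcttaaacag
Tgfbr2 exon, chr9:116158271-116158345, minus strand, held by Tgfbr2-202 and lacking in Tgfbr2-201: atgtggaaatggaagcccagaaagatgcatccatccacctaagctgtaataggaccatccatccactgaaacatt
Il10ra exon, chr9:45267100-45267220, minus strand, held by Il10ra-201 and lacking in Il10ra-203: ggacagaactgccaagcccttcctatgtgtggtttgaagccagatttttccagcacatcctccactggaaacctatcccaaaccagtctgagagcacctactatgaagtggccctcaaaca
Ifngr1 exon end, chr10:19597517-19597530, plus strand, held by Ifngr1-201 and lacking in Ifngr1-203: gtaaaggtgtattc
The Il12rb1 exon has 97 coding bases, which is no multiple of 3, and it codes for the membrane-spanning stretch. The Tgfbr2 exon has 75 coding bases and leaves the reading frame as it was. The Il10ra exon (121 bases) and the Ifngr1 exon end (14 bases) shift the frame, and the isoforms without them are annotated as targets of nonsense-mediated decay.

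The promoter of Il12rb2, the gene with the widest range over the libraries, is shown as the 250 bases before its RefSeq start (GRCm38.p6, the mm10 assembly), with motif matches in capitals.
Il12rb2, chr6:67376189-67376438, minus strand: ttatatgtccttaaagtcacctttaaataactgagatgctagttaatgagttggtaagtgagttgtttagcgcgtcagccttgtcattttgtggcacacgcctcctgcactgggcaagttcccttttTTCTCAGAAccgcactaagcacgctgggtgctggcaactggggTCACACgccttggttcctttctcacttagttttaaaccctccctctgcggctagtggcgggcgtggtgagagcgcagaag
The first match is a STAT site (TTCNNNGAA), at bases 123 to 115 before the start, a motif found on either strand in 7.02% of the 32851 promoter windows of this length. The second is a T-box element (TCACAC) at bases 80 to 75, found in 12.3% of the windows. The AP-1 site TGANTCA (6.75% of windows) and the NF-kB consensus (3.90%) had no match in this window, and the matches shown do not overlap. Windows were on hand for 6 of the 9 genes. The most downstream of 3 Il18r1 windows held 2 STAT sites, and the other windows of Il18r1 and those of Il18rap, Il6st, Ifngr1 and Tgfbr2 held no match to any of the 4 motifs. These are matches of letters and not measured sites.

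The receptor for IL-12 showed the widest span. Il12rb2, on chromosome 6 at 67291318 to 67376188 (minus strand), codes for the chain that passes the IL-12 signal on to STAT4. It stood at 4.07 and 4.39 CPM (normalised with TMM factors) in the 2 Naive libraries. In Ag it was at 1.73, 1.92, 3.94, 2.45 and 1.01 CPM in replicates 1 to 5. In Ag+Costim it was at 19.0, 70.9, 70.2, 35.7 and 48.6 CPM. Every Ag+Costim library lay above every Ag and Naive library, and every Ag library lay below both Naive libraries. On the log2 scale, the fold change was 4.47 (SE 0.41) for Ag+Costim against Ag, which ranked 191 from the top of 18817 genes, 3.53 (SE 0.58) for Ag+Costim against Naive and −0.94 (SE 0.48) for Ag against Naive.

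The low Ag values of Il12rb2 rest on few counts, 42 to 169 a library, against 800 to 3275 in Ag+Costim. Serbp1 lies on the opposite strand and shares 1519 exon bases with Il12rb2, and the library kit does not mark strand, so reads of both genes cannot be told apart there. Serbp1 held 389 to 511 CPM in Ag and 521 to 689 CPM in Ag+Costim. Its part in the Il12rb2 counts was not tested.

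Il12rb1, on chromosome 8 at 70808449 to 70821424 (plus strand), codes for the chain shared by the receptors for IL-12 and IL-23. It was at 9.34 and 5.84 CPM in Naive. In Ag it was at 14.5, 17.6, 11.8, 13.7 and 11.98 CPM, and in Ag+Costim at 31.2, 50.2, 58.8, 40.8 and 49.8 CPM. The 3 groups did not overlap, with Naive lowest and Ag+Costim highest. Fitted log2 fold changes were 1.73 (SE 0.19) for Ag+Costim against Ag and 0.88 (SE 0.25) for Ag against Naive.

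Because the chains pair, their levels were also set against each other per length, as FPKM (fragments scaled to transcript length and library depth). The ratio of Il12rb2 to Il12rb1 FPKM was 0.406 and 0.624 in Naive. It was 0.111, 0.104, 0.323, 0.170 and 0.0766 in Ag, and 0.562, 1.29, 1.10, 0.804 and 0.903 in Ag+Costim. The chain specific to IL-12 was thus the scarcer one in each Ag and Naive library, and above its partner in 2 of the 5 Ag+Costim libraries.

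The 2 chains of the IL-18 receptor did not move to the same degree. Il18r1, on chromosome 1 at 40465552 to 40500854 (plus strand), codes for the chain that binds IL-18. It was at 38.4 and 35.5 CPM in Naive, at 57.5, 73.1, 39.6, 47.7 and 52.7 CPM in Ag, and at 71.4, 70.8, 78.1, 81.6 and 68.8 CPM in Ag+Costim. Replicate 2 of Ag reached into the Ag+Costim range. For Ag+Costim against Ag, its log2 fold change was 0.45 (SE 0.13), and it dropped to between 0.24 and 0.26 under upper-quartile scaling, with a length-trend offset and in the FPKM fits, where it was no longer called.

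Il18rap, next to it on chromosome 1 at 40515362 to 40551705 (plus strand), codes for the accessory chain that brings in MyD88. It was at 34.4 and 22.5 CPM in Naive, at 40.5, 40.6, 34.3, 54.3 and 61.3 CPM in Ag, and at 99.2, 112, 121, 148 and 129 CPM in Ag+Costim. Every Ag+Costim library lay above every other library, while Ag and Naive overlapped. Its log2 fold change was 1.40 (SE 0.17) for Ag+Costim against Ag and 2.1 (SE 0.25) for Ag+Costim against Naive. The FPKM ratio of Il18r1 to Il18rap was 1.70 and 2.31 in Naive, ran from 1.18 to 3.07 in Ag and lay between 0.834 and 1.01 in Ag+Costim, below every Ag library.

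Il27ra and Il6st were highest in naive cells. Il27ra, on chromosome 8 at 84030294 to 84042589 (minus strand), codes for the chain that gives the IL-27 receptor its specificity. It was at 414 and 406 CPM in Naive, at 262, 345, 268, 255 and 304 CPM in Ag, and at 209, 189, 199, 217 and 156 CPM in Ag+Costim, with no overlap between any 2 groups. The log2 fold change was −0.56 (SE 0.11) for Ag+Costim against Ag, −0.51 (SE 0.14) for Ag against Naive and −1.08 (SE 0.14) for Ag+Costim against Naive.

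Il6st, on chromosome 13 at 112464070 to 112510086 (plus strand), codes for the signalling chain shared by the receptors of IL-6, IL-27 and related cytokines. It was at 141 and 167 CPM in Naive. In Ag it was at 57.2, 67.7, 58.6, 71.6 and 58.4 CPM, and in Ag+Costim at 46.1, 61.1, 56.1, 63.1 and 46.8 CPM. These 2 groups overlapped, and both lay below Naive. Its log2 fold change was −1.30 (SE 0.14) for Ag against Naive and −0.20 (SE 0.11) for Ag+Costim against Ag. The latter widened to between −0.40 and −0.55 under upper-quartile scaling, with a length-trend offset and in the FPKM fits, each of which called it lower. The Il27ra to Il6st FPKM ratio was 8.28 and 8.65 in Naive, 8.14 to 14.2 in Ag and 7.48 to 13.1 in Ag+Costim, with the last 2 groups overlapping.

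Among the receptors for regulatory cytokines, Il10ra and Tgfbr2 were higher in Ag+Costim than in Ag but stood differently to naive cells. Il10ra, on chromosome 9 at 45253837 to 45269149 (minus strand), codes for the chain that binds IL-10. It was at 55.7 and 53.1 CPM in Naive, at 41.7, 45.5, 44.7, 61.4 and 76.7 CPM in Ag, and at 76.4, 111, 147, 159 and 112 CPM in Ag+Costim. The highest Ag library stood just above the lowest Ag+Costim library. The log2 fold change was 1.16 (SE 0.20) for Ag+Costim against Ag and −0.01 (SE 0.27) for Ag against Naive.

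The partner chains Il10rb, Tgfbr1 and Ifngr2 were picked out after their values had been seen, so their differences between groups are a description as well. Il10rb, which pairs with Il10ra, averaged 163 ± 23.9 CPM (SD, n = 5) in Ag and 97.0 ± 29.2 CPM (SD, n = 5) in Ag+Costim (log2 fold change −0.75, SE 0.17), and every Ag+Costim library lay below every Ag library. The FPKM ratio of Il10ra to Il10rb was 0.260 and 0.228 in Naive, 0.141 to 0.211 in Ag and 0.542 to 0.844 in Ag+Costim. Il10ra thus had the lower FPKM of the pair in all 12 libraries.

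Tgfbr2, on chromosome 9 at 116084293 to 116175360 (minus strand), codes for the chain that binds TGF-beta and activates the type I receptor. It was at 162 and 192 CPM in Naive, at 50.2, 58.6, 52.9, 45.0 and 61.3 CPM in Ag, and at 97.9, 116, 115, 131 and 107 CPM in Ag+Costim. The groups did not overlap, with Ag lowest and Ag+Costim between Ag and Naive. The log2 fold change was −1.72 (SE 0.13) for Ag against Naive, 1.08 (SE 0.11) for Ag+Costim against Ag and −0.64 (SE 0.13) for Ag+Costim against Naive. Tgfbr1, the type I chain, was at 9.0 ± 1.52 CPM (SD, n = 5) in Ag and 8.06 ± 1.13 CPM (SD, n = 5) in Ag+Costim (log2 fold change −0.16, SE 0.14). In Naive it was at 17.4 ± 0.555 CPM (SD, n = 2). The Tgfbr2 to Tgfbr1 FPKM ratio was 6.17 and 7.75 in Naive, 2.78 to 5.25 in Ag and 8.97 to 12.6 in Ag+Costim, with no overlap.

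Ifngr1, on chromosome 10 at 19591949 to 19610229 (plus strand), codes for the ligand-binding chain of the interferon-gamma receptor. It was at 429 and 418 CPM in Naive, at 308, 333, 322, 267 and 331 CPM in Ag, and at 268, 451, 442, 383 and 345 CPM in Ag+Costim. Replicate 1 of Ag+Costim lay inside the Ag range. The log2 fold change for Ag+Costim against Ag was 0.27 (SE 0.13), was not called, and was called at 0.38 without that library.

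Its partner Ifngr2, the signalling chain, was far lower in the transferred cells. It was at 51.1 ± 0.210 CPM (SD, n = 2) in Naive, 3.55 ± 0.558 CPM (SD, n = 5) in Ag and 2.19 ± 0.804 CPM (SD, n = 5) in Ag+Costim. Against Naive, its log2 fold change was −3.85 (SE 0.26) for Ag and −4.54 (SE 0.26) for Ag+Costim. Between Ag+Costim and Ag it was −0.69 (SE 0.22), with overlapping ranges. The FPKM ratio of Ifngr1 to Ifngr2 was 15.4 and 15.2 in Naive, 111 to 203 in Ag and 225 to 368 in Ag+Costim. The binding chain thus exceeded the signalling chain per length in every library, and by the smallest ratio in naive cells.

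**Figure D1:**
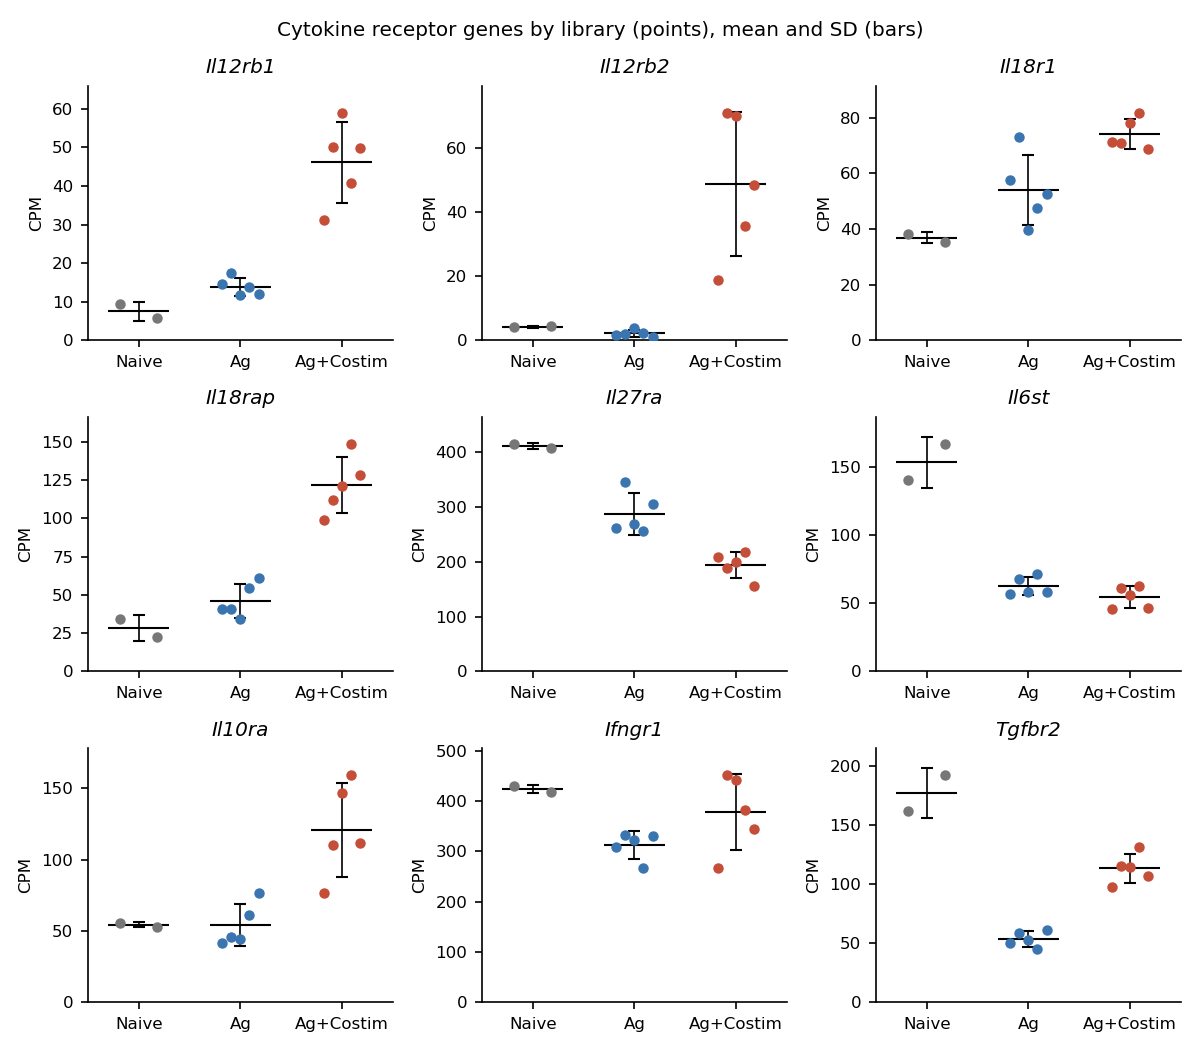
CPM of the 9 receptor genes (vertical axes from 0, 1 panel a gene) in the 2 Naive, 5 Ag and 5 Ag+Costim libraries, with points for libraries and bars for the group mean and SD. Il12rb2 reached 70.9 CPM in Ag+Costim against at most 4.39 CPM in the other groups, while Il27ra stepped down from Naive to Ag to Ag+Costim.

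**Figure D2:**
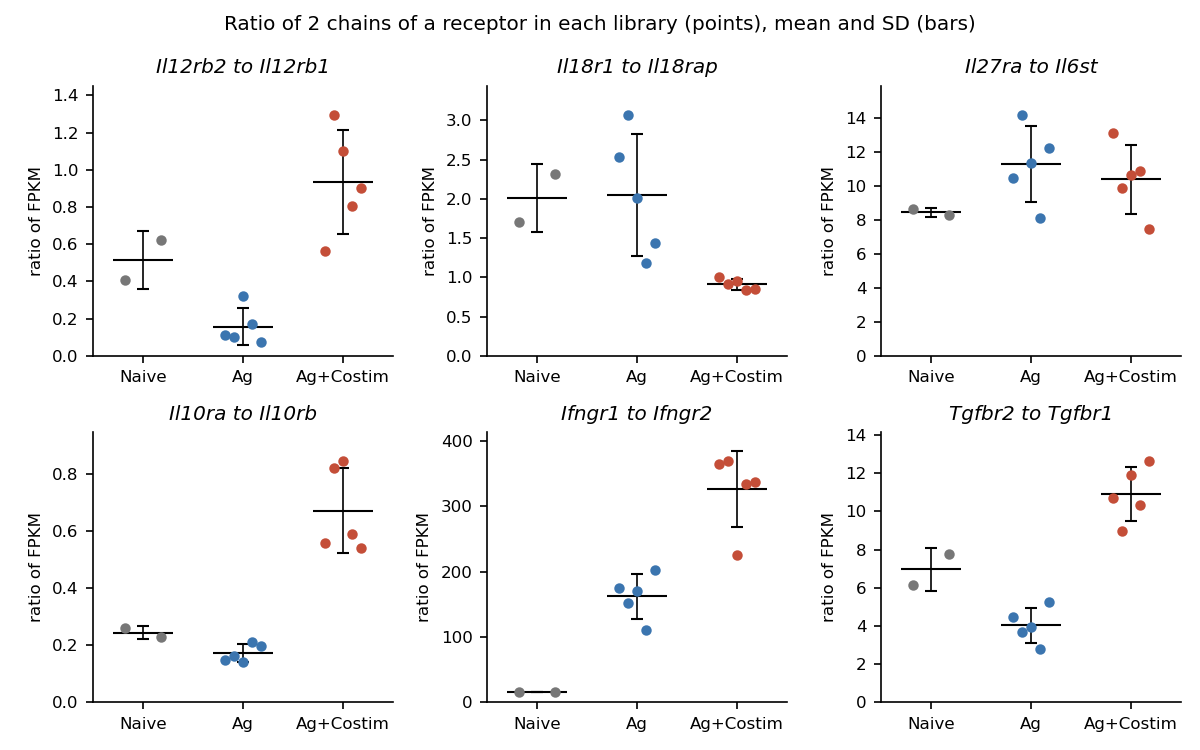
Ratio of the FPKM of 2 chains of a receptor (vertical axes from 0) in each of the 12 libraries, with points for libraries and bars for the group mean and SD. The Ag+Costim libraries lie above the Ag libraries for Il12rb2 to Il12rb1, Il10ra to Il10rb, Ifngr1 to Ifngr2 and Tgfbr2 to Tgfbr1, below them for Il18r1 to Il18rap, and among them for Il27ra to Il6st.

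Within groups, the libraries differed along shared lines. Replicate 1 of Ag+Costim was the lowest library of its group for 7 of the 9 genes (Il12rb1, Il12rb2, Il18rap, Il6st, Il10ra, Ifngr1 and Tgfbr2), and replicate 4 was the highest for 6. In Ag, no library was lowest for more than 3 genes, and the shallow replicate 4 was lowest for Il27ra, Ifngr1 and Tgfbr2.

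Between Ag+Costim and Ag, 6 of the 9 genes were called higher (Il12rb1, Il12rb2, Il18r1, Il18rap, Il10ra and Tgfbr2), Il27ra was called lower, and Il6st and Ifngr1 were not called (edgeR, adjusted p below 0.05 over all genes). Over all 18817 genes, 53.1% were called, 26.6% higher and 26.5% lower. Every Ag+Costim library lay above every Ag library for 4 of the genes and below for 1, where 21.3% and 18.5% of all genes did so. The median log2 fold change was 1.08 over the 9 genes and −0.05 over all genes tested. Since the choice of genes used this contrast, these counts say nothing beyond the values above. The split of calls was 5 higher and 2 lower under upper-quartile scaling and in the FPKM fits, where the median of all genes under upper-quartile scaling was −0.24.

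Between Ag and Naive, 3 genes were called higher (Il12rb1, Il18r1 and Il18rap), 4 lower (Il27ra, Il6st, Ifngr1 and Tgfbr2) and Il12rb2 and Il10ra not at all, beside 46.7% of all genes called, 24.2% higher and 22.5% lower. The median was −0.44 over the 9 genes and 0.02 over all genes. These calls lean on the 2 Naive libraries: the count of 7 fell to 4 without Naive replicate 1 and to 3 without Naive replicate 2. The log2 fold change of Il18rap (0.70, SE 0.23) became 1.03 without Naive replicate 1 and 0.42 without Naive replicate 2, and that of Il12rb1 became 1.25 and 0.57. Between Ag+Costim and Naive, 5 genes were called higher (Il12rb1, Il12rb2, Il18r1, Il18rap and Il10ra), 3 lower (Il27ra, Il6st and Tgfbr2) and Ifngr1 was not called, beside 52.3% of all genes called, 26.9% higher and 25.4% lower. Both comparisons share the Naive libraries.

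**Figure D3:**
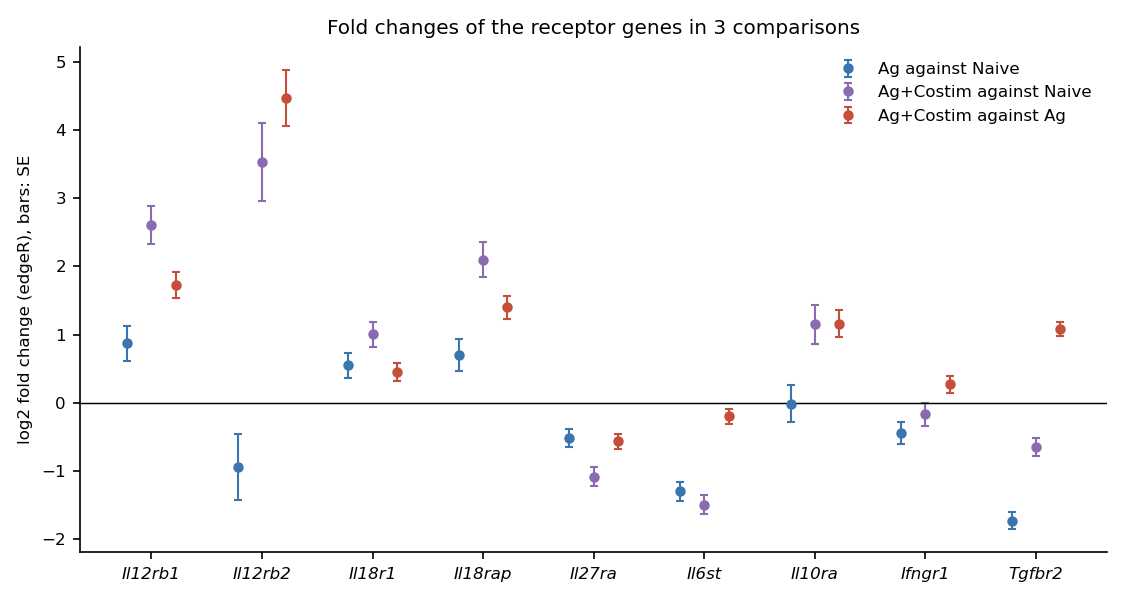
log2 fold change of each receptor gene (vertical axis) in the 3 comparisons, fitted with edgeR on 2 Naive, 5 Ag and 5 Ag+Costim libraries, with bars for the standard error. Il12rb2 stands at 4.47 for Ag+Costim against Ag, and Tgfbr2 lies at −1.72 for Ag against Naive and at 1.08 for Ag+Costim against Ag.

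Ranked per length, Ifngr1 had the highest FPKM of the 9 genes in every group, at 233 ± 0.161 (SD, n = 2) in Naive, 148 ± 9.48 (SD, n = 5) in Ag and 174 ± 33.8 (SD, n = 5) in Ag+Costim. Il27ra came next, at 195 ± 1.82, 113 ± 13.3 and 71.1 ± 8.74 FPKM, and its range met that of Ifngr1 only in Ag. In Naive, the order went on with Tgfbr2 (28.6 ± 2.29), Il6st (23.1 ± 0.496), Il10ra (17.2 ± 0.344), Il18r1 (13.1 ± 0.723), Il18rap (6.73 ± 1.80), Il12rb1 (3.18 ± 0.833) and Il12rb2 (1.57 ± 0.0597), with no 2 neighbours overlapping in these 2 libraries.

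In Ag, Il18r1 (18.9 ± 5.33 FPKM), Il10ra (15.3 ± 4.30), Il6st (10.3 ± 1.89), Il18rap (9.79 ± 2.58) and Tgfbr2 (7.24 ± 1.10) each overlapped with the next in order. Il12rb1 (4.96 ± 0.920) and Il12rb2 (0.737 ± 0.350) followed, apart from the rest and from each other. In Ag+Costim, Il10ra (33.1 ± 8.65) overlapped with Il18rap (24.2 ± 3.49), which overlapped with Il18r1 (22 ± 1.78). Below them, Il12rb1 (15.9 ± 3.47), Tgfbr2 (15.5 ± 1.13), Il12rb2 (15.5 ± 7.01) and Il6st (6.93 ± 0.663) formed a chain of overlapping ranges. Il6st thus stood above Il10ra in Naive and at the bottom in Ag+Costim, and Il12rb2 was at the bottom in Naive and Ag.

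The isoform shares of the receptors were not themselves used to select the genes, so they were tested between Ag+Costim and Ag. The total under each share is the gene's own level, which the choice rested on, so these tests are not fully independent of it. A share is the count of a transcript over the summed transcript counts of its gene in a library, and 16 transcripts of the 9 genes had a mean share of at least 10% over the libraries. An exact permutation test of the difference in either direction over all arrangements of 5 against 5 libraries can give no p below 0.00794. Of the 16 shares, 3 passed after adjustment over all 16.

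Of these 3, 2 are the complementary shares of Il12rb2 and make up 1 result. Il12rb2-201 rose from 77.1% ± 5.74 (SD, n = 5) of counts in Ag to 99.8% ± 0.0901 (SD, n = 5) in Ag+Costim (exact p = 0.00794, adjusted p = 0.0423). Il12rb2-202, a form with 10 exons that lacks the upstream exons of the 16-exon Il12rb2-201, held the rest, 22.9% ± 5.74 (SD, n = 5) of counts in Ag and 0.184% ± 0.0901 (SD, n = 5) in Ag+Costim. It met the minimum share only through Ag, where it was high, so no call is taken from it. The gene has 2 annotated transcripts, so the share of Il12rb2-201 is its complement and has the same p. That p therefore describes these libraries, and no call is taken from Il12rb2-201 either. The p of Il12rb2-202 was still counted in the adjustment over 16, and the adjusted p of Il12rb2-201 and Il18rap-201 leans on that. Without replicate 4 of Ag, Il12rb2-202 left the tested set. The other 2 then kept an exact p of 0.00794 but had an exact adjusted p of 0.0595. With a minimum share of 20%, which also leaves Il12rb2-202 out, Il12rb2-201 and Il18rap-201 passed (exact adjusted p = 0.0476 for both). The libraries did not overlap. In Ag the share of Il12rb2-202 stands for 7 to 42 counts a library, and in Ag+Costim for 1 to 10 counts. Of the exon bases of Il12rb2-202, 58.4% lie within Serbp1 exons, against 27.3% for Il12rb2-201, and the part of Serbp1 reads in this share was not tested. In Naive the share was 20.2% and 0.957%.

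The third was Il18rap-201, the protein-coding form of Il18rap, which made up 98.2% ± 0.553 (SD, n = 5) of counts in Ag and 99.3% ± 0.135 (SD, n = 5) in Ag+Costim, a difference of 1.14 percentage points with no overlap (exact p = 0.00794, adjusted p = 0.0423). The other annotated Il18rap transcripts are retained-intron forms. The gene's summed counts were 1372 to 2549 in Ag and 4185 to 6382 in Ag+Costim, and how far the share restates that rise was not tested. The shares that passed are near the threshold. Leaving out any single Ag+Costim library, or replicate 4 of Ag, left 0 of them passing. The exact adjusted p for Il12rb2-201 was then 0.0635 and 0.0595, in that order. Leaving out replicate 2 of Ag left 6 shares passing.

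The 2 main forms of Il6st differ in their first exons and in where they end and have coding sequences of the same length, 2751 bases. Il6st-203, the one that ends further downstream, made up 53.1% ± 17.0 (SD, n = 5) of counts in Ag and 84.3% ± 14.0 (SD, n = 5) in Ag+Costim (exact p = 0.0238, adjusted p = 0.0762), which did not pass. Without replicate 2 of Ag, the highest Ag library at 80.3%, it passed with an exact adjusted p of 0.0423. Il18r1-202, the full-length form, made up 62.5% ± 10.9 (SD, n = 5) in Ag and 76.4% ± 5.48 (SD, n = 5) in Ag+Costim (exact p = 0.0476, adjusted p = 0.127) and did not pass either. Il18r1-203 and Il18r1-204, whose coding sequence is 1116 bases long against 1611 for Il18r1-202, together held 36.5% ± 10.8 (SD, n = 5) in Ag and 21.9% ± 5.16 (SD, n = 5) in Ag+Costim.

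Il12rb1-205, the form without the exon for the membrane-spanning stretch, varied widely between libraries of a group. It made up 54.9%, 63.5%, 24.3%, 0% and 0% in the 5 Ag libraries, 10.5%, 31.5%, 42.8%, 25.5% and 14.1% in Ag+Costim, and 47.4% and 0% in Naive. The 0 values rest on 347 and 498 counts of the gene in Ag and 278 in Naive, where counting error alone allows up to 3 counts of the form. Transcript counts are assigned among forms that share exons, and the error of that assignment is not in this limit. The means of 28.5% and 24.9% did not differ beyond that spread (exact p = 0.825, adjusted p = 0.865).

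Tgfbr2-202, with the 75-base exon, made up 91.5% ± 7.15 (SD, n = 5) in Ag and 87.5% ± 5.21 (SD, n = 5) in Ag+Costim (exact p = 0.365, adjusted p = 0.584). The decay-annotated forms Il10ra-203 (16.3% ± 10.8 in Ag and 12.9% ± 9.75 in Ag+Costim, SD, n = 5 each) and Ifngr1-203 (13.2% ± 8.28 and 14.0% ± 7.81, SD, n = 5 each) did not pass, with exact adjusted p = 0.865 for both. In Naive, Ifngr1-203 held 24.3% and 42.6%.

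**Figure D4:**
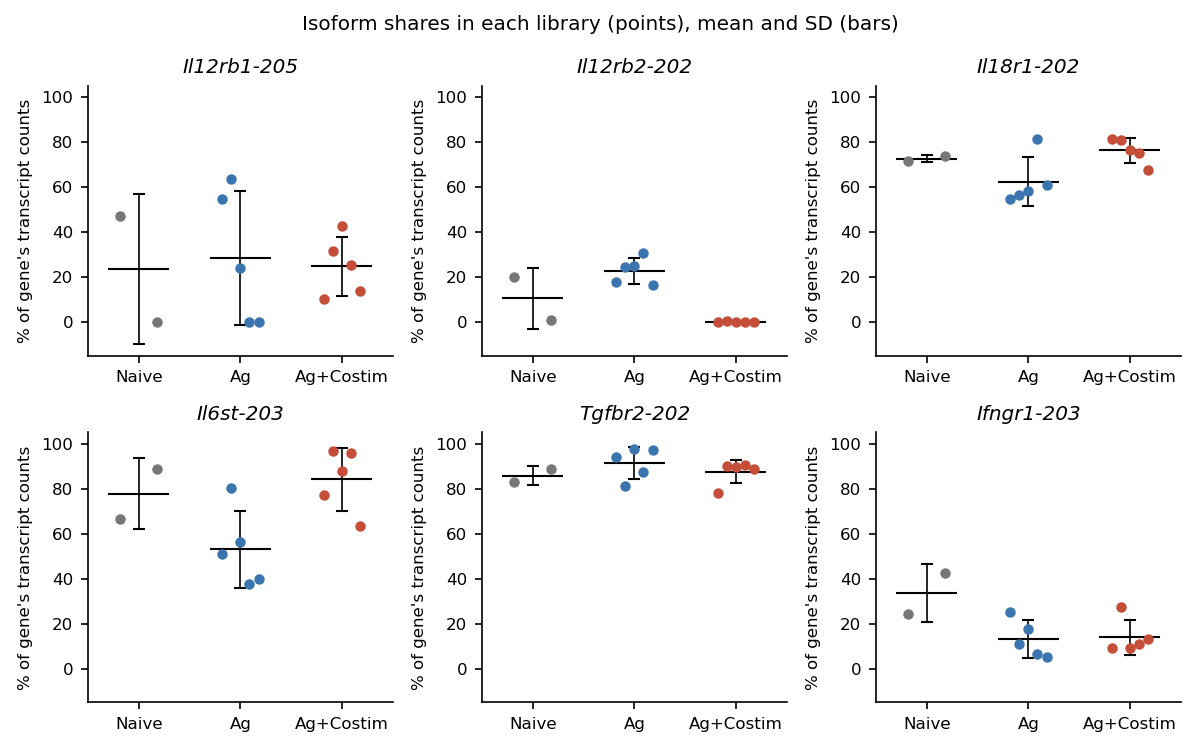
Share of 6 isoforms in the transcript counts of their gene (vertical axis, percent) in each of the 12 libraries, with points for libraries and bars for the group mean and SD. Il12rb2-202 lies between 16.7% and 30.6% in Ag and at most at 0.313% in Ag+Costim, whereas the groups overlap for the other 5 isoforms.

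The percent-spliced-in values (Psi) that the authors deposited, 1 for each of Ag and Ag+Costim and hence without error, give a second view of the same exons. For the 97-base Il12rb1 exon, the Psi was 0.714 in Ag and 0.869 in Ag+Costim. For the 75-base Tgfbr2 exon it was 0.626 and 0.450. The transcript shares, by contrast, overlapped between the groups for both genes and placed the Tgfbr2 exon in most transcripts of each group. The Psi difference cannot be set against a spread between libraries.

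Of 87 core exons of the 9 genes in that table, 5 differed by more than 0.1 in Psi (5.75%), and 1809 of 89034 did so over all genes (2.03%). The other 3 were Il12rb2 exons of 99, 138 and 100 bases, each lower in Ag (0.879, 0.852 and 0.874) than in Ag+Costim (0.983, 0.986 and 0.978), where the Ag values rest on the gene's low counts. Nodes of other types also differed by more than 0.1, but the share of all genes' nodes that did so was not computed. Among transcript starts, the first node of Il6st had a Psi of 0.365 in Ag and 0.651 in Ag+Costim. An Il18r1 start node of 36 bases, at chr1:40465970-40466005, had 0.109 and 0.356. The most downstream Il6st end node had 0.0774 in Ag and 0.0574 in Ag+Costim, and the node before it had 0.923 and 0.817. Both nodes were thus lower in Ag+Costim. The mean share of Il6st-203, the main form that ends further downstream, was by contrast higher there. The cause of this difference between the measures was not tested, and no shift to a longer 3′ end is read from either. An Il6st end node further upstream, at chr13:112504446-112504491, had 0.000739 and 0.127. The Il12rb2 end node at chr6:67291318-67292017 had 0.852 in Ag and 0.839 in Ag+Costim. It lies in Il12rb2-202 and beyond the end of Il12rb2-201. Its Psi thus did not show the fall of Il12rb2-202 seen in the transcript shares, and the cause of the difference was not tested.

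The genes around the receptors were taken from 7 lists of 96 genes in all, of which 89 were tested. Between Ag+Costim and Ag, 26 were called higher and 18 lower, 44 of 89 beside the 53.1% of all genes, and the split was 25 to 26 under upper-quartile scaling and 23 to 25 with a length-trend offset. Each adjusted p that follows is from the edgeR quasi-likelihood test over all genes. The lists were chosen with earlier results of these data known, and the genes named are called ones with the largest fold changes. Their adjusted p therefore describe these libraries and are no separate support.

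Of 16 tested partner and alternative chains, 2 were higher and 5 lower (median log2 fold change −0.15). Il1rl1, the chain that binds IL-33 and signals through MyD88 like the IL-18 receptor, was at 21.8 ± 8.29 CPM (SD, n = 5) in Ag+Costim and 1.05 ± 0.309 CPM (SD, n = 5) in Ag (log2 fold change 4.38, SE 0.37, adjusted p = 4.77e-07). Il11ra1, the IL-11 binding chain that pairs with Il6st, fell by 1.44 on the log2 scale (SE 0.29, adjusted p = 0.000951) from 3.00 ± 1.35 to 1.10 ± 0.196 CPM.

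Of 11 tested ligands, 1 was higher and 2 lower (median −0.14). Tgfb1, which codes for TGF-beta 1, rose from 13.8 ± 3.75 CPM (SD, n = 5) in Ag to 106 ± 15.7 CPM (SD, n = 5) in Ag+Costim (log2 fold change 2.95, SE 0.17, adjusted p = 3.01e-08). Ifng was at 16 ± 3.12 CPM in Ag and 9.03 ± 1.35 CPM in Ag+Costim (log2 fold change −0.82, SE 0.17, adjusted p = 0.00127). Il12b, Il23a and Il6 were among the 7 listed genes that did not pass the filter.

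Of 12 kinases, STATs and inhibitors, 4 were higher and 3 lower (median 0.21). Tyk2, a kinase that binds Il12rb1, rose from 64.3 ± 8.12 to 132 ± 12.7 CPM (log2 fold change 1.04, SE 0.10, adjusted p = 1.23e-06). Cish, a feedback inhibitor of cytokine signalling, rose from 2.82 ± 0.921 to 5.93 ± 2.19 CPM (log2 fold change 1.08, SE 0.28, adjusted p = 0.00581), with overlapping ranges. Of 11 genes of IL-18 signalling through MyD88, 4 were higher and 1 lower (median 0.07). Traf6, a ubiquitin ligase of that route, had a log2 change of 0.92 (SE 0.11, adjusted p = 1.12e-05) and Tab3, an adaptor of the kinase TAK1, one of 1.37 (SE 0.22, adjusted p = 0.000166).

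Of 12 genes of TGF-beta signalling, 3 were higher and 3 lower (median −0.16). Smad3, a receptor-activated factor, rose from 6.78 ± 2.56 CPM (SD, n = 5) in Ag to 54.1 ± 8.09 CPM (SD, n = 5) in Ag+Costim (log2 fold change 3.01, SE 0.21, adjusted p = 1.14e-07). Smad4, the common partner of these factors, fell from 48.7 ± 27.1 to 11.0 ± 2.29 CPM, with a log2 fold change at −2.15 (SE 0.31, adjusted p = 6.05e-05). The list had 3 genes higher and 6 lower under upper-quartile scaling, and 2 higher and 6 lower with a length-trend offset.

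Of 10 tested genes listed as responding to IL-12 and interferon-gamma, 5 were higher (Tbx21, Irf8, Irf4, Eomes and Cxcl10) and 1, Ifngr2, lower (median 0.60). Ifngr2 is a receptor chain that is also counted among the partner and alternative chains. The split was 5 to 3 under upper-quartile scaling, in the limma fits on filtered FPKM and without replicate 4 of Ag+Costim. Tbx21, which codes for the T-box factor T-bet, rose from 109 ± 25.8 to 443 ± 87.6 CPM (log2 fold change 2.02, SE 0.19, adjusted p = 1.09e-06). Cxcl10, a chemokine induced by interferon, rose from 1.5 ± 0.801 to 6.75 ± 2.74 CPM (log2 fold change 2.19, SE 0.36, adjusted p = 0.000152). Of 18 other cytokine receptors, 7 were higher and 4 lower (median −0.05). Il31ra, an IL-31 receptor chain, rose from 0.306 ± 0.151 to 4.67 ± 1.73 CPM (log2 fold change 3.95, SE 0.42, adjusted p = 6.02e-06). Csf1r, the receptor for a myeloid growth factor and a gene of the myeloid marker list, had a log2 change of 1.55 (SE 0.47, adjusted p = 0.0137) with overlapping ranges.

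**Figure D5:**
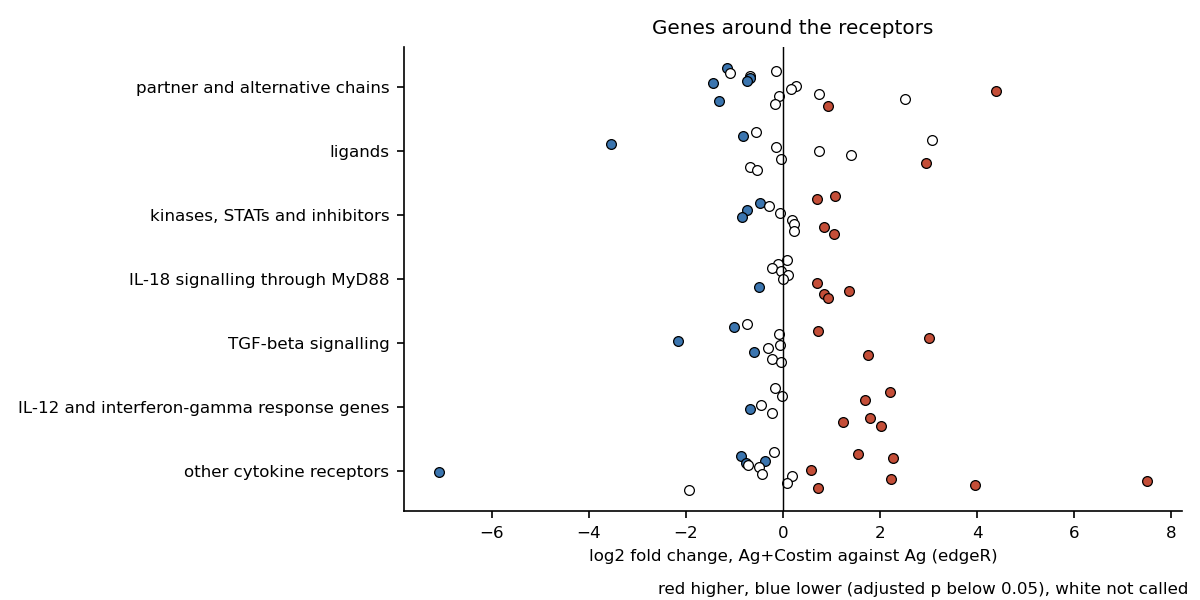
log2 fold change of the listed genes for Ag+Costim against Ag (horizontal axis), 1 row a list, with filled points for genes called higher (red) or lower (blue) by edgeR and open points for genes not called. The lists hold calls in both directions. Among the listed IL-12 and interferon-gamma response genes 5 were higher and 1 (Ifngr2, also a partner chain) lower, or 5 and 3 under upper-quartile scaling.

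Against naive cells, 22 of the 89 listed genes were higher and 29 lower in Ag (46.7% of all genes called), and 26 were higher and 28 lower in Ag+Costim (52.3% of all genes called). The 22 higher calls in Ag became 13 without Naive replicate 1 and 15 without Naive replicate 2, and 12 to 15 in the limma fits on FPKM. Of the TGF-beta signalling list, 0 were higher and 8 of 12 lower in Ag, and 1 was higher and 7 lower in Ag+Costim. Smad7, an inhibitor induced by TGF-beta, had a log2 change of −2.09 (SE 0.17, adjusted p = 6.13e-07) in Ag and −2.15 (SE 0.17, adjusted p = 2.55e-07) in Ag+Costim. Smad3 was lower in Ag (−1.90, SE 0.25, adjusted p = 3.56e-05). Ski, a repressor of SMAD factors, was lower in Ag+Costim (−1.91, SE 0.23, adjusted p = 1.19e-05).

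Partner and alternative chains were lower in 9 and higher in 2 of 16 in Ag, and lower in 10 and higher in 2 in Ag+Costim. Tgfbr3, a co-receptor for TGF-beta, went from 19.5 ± 6.39 CPM (SD, n = 2) in Naive to 0.893 ± 0.368 CPM (SD, n = 5) in Ag (log2 fold change −4.44, SE 0.40, adjusted p = 1.79e-06), and Eng, another such co-receptor, had log2 fold changes of −4.37 (SE 0.54, adjusted p = 2.42e-05) in Ag and −5.06 (SE 0.55, adjusted p = 6.13e-06) in Ag+Costim. Il1rl1 was at 0.0617 ± 0.0873 CPM (SD, n = 2) in Naive and called higher in Ag+Costim (adjusted p = 1.01e-06).

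Among ligands, 5 of 11 were higher and 1 lower in Ag, and 4 higher and 1 lower in Ag+Costim. Ifng was at 0.771 ± 0.276 CPM (SD, n = 2) in Naive, with log2 fold changes of 4.37 (SE 0.31, adjusted p = 2.47e-07) in Ag and 3.55 (SE 0.30, adjusted p = 5.37e-07) in Ag+Costim. Il18 rose from 0.509 ± 0.0369 CPM (SD, n = 2) to 7.57 ± 0.965 and 6.89 ± 2.77 CPM (SD, n = 5 each; adjusted p = 1.08e-05 and 1.01e-05).

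Of the kinases, STATs and inhibitors, 2 were higher and 5 lower in Ag, and 3 higher and 3 lower in Ag+Costim. Socs3, which blocks signalling through Il6st, fell from 198 ± 4.88 CPM (SD, n = 2) in Naive to 20.2 ± 6.45 and 23.0 ± 5.48 CPM (SD, n = 5 each; adjusted p = 3.65e-07 and 3.11e-07). Ptpn11, a phosphatase that docks on cytokine receptors, was higher in Ag (1.5, SE 0.15, adjusted p = 4.54e-06) and Socs1 lower in Ag+Costim (−1.21, SE 0.27, adjusted p = 0.00197). Of the IL-18 signalling genes, 2 were higher and 4 lower in Ag, and 3 higher and 2 lower in Ag+Costim. Traf6 (−1.12, SE 0.14, adjusted p = 2.56e-05) and Tab1 (−1.13, SE 0.16, adjusted p = 9.29e-05) fell in Ag, and in Ag+Costim Map3k7, the gene of TAK1, rose (0.96, SE 0.21, adjusted p = 0.00204) while Tab2 fell (−0.84, SE 0.23, adjusted p = 0.00769), a call that was lost without Naive replicate 2. Without Naive replicate 1, the IL-18 signalling list had 0 genes higher and 2 lower in Ag, and 1 higher and 1 lower in Ag+Costim.

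Of 10 genes listed as responding to IL-12 and interferon-gamma, with Ifngr2 among them, 6 were higher and 1 lower in Ag. In Ag+Costim, 7 were higher and 2 lower. Irf4, a factor induced by receptor signalling, had log2 fold changes of 2.90 (SE 0.41, adjusted p = 6.80e-05) and 4.69 (SE 0.44, adjusted p = 1.74e-06). Of the other cytokine receptors, 5 were higher and 2 lower in Ag, and 6 higher and 4 lower in Ag+Costim. Il17ra was lower in Ag (−1.26, SE 0.17, adjusted p = 4.23e-05) and Il3ra higher in Ag+Costim (1.38, SE 0.28, adjusted p = 0.00110). Il31ra had 0 counts in both Naive libraries and was called higher in Ag (adjusted p = 0.000611) and in Ag+Costim (adjusted p = 5.63e-06), so no fold is given. The call in Ag was lost in each of the 3 limma fits on FPKM.

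Across all 12 libraries, likeness was measured as the root-mean-square difference of log2 CPM, each gene centred on its own mean, over 8444 protein-coding genes. The nearest to Il12rb2 were Cercam (0.72), Bhlhe40 (0.75) and Slc7a5 (0.77), against a spread of Il12rb2 itself of 2.15. Nearest to Il12rb1 (spread 1.05) were Snx10 (0.24), Gpsm2 (0.25) and Mcm7 (0.25), and nearest to Il18rap (spread 0.87) were Myo1f (0.21), Snx10 (0.25) and Pfkp (0.25). Il18r1 was nearest to Lrp10 (0.17), Ddost (0.18) and Scly (0.18), and Il10ra to Trafd1 (0.22), F2r (0.23) and Sh3bp2 (0.24).

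Il27ra, Il6st, Ifngr1 and Tgfbr2 had their highest mean CPM in Naive, though Ifngr1 overlapped there with Ag+Costim. Il27ra was nearest to Fam169b (0.11), Mks1 (0.11) and Zfp523 (0.12), and Il6st to Smarca2 (0.10), Zeb1 (0.13) and 4932438A13Rik (0.13). Ifngr1 was nearest to Zc3hav1 (0.14), Papolg (0.15) and Efl1 (0.15), and Tgfbr2 to Irf2bpl (0.10), Abtb2 (0.13) and Limk1 (0.14). Of the 9 genes among themselves, Il27ra and Il6st were the closest (0.33), followed by Il12rb1 and Il18rap (0.38). These distances describe the same 12 libraries, which share their depth and group structure, and say nothing of shared control.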

How the data were processed

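RNA from 12 libraries of sorted mouse CD8+ T cells had been made into cDNA with a kit that does not mark strand. Per the study's methods and the submitters' processing notes, the authors aligned reads to mm10 with HISAT2 2.1.0, sorted them with SAMtools 1.9 and deposited StringTie 2.1.0 gene and transcript counts, FPKM values per transcript, and Whippet Psi values (a fraction, 1 per group); read numbers behind Psi were not used here. Columns of the authors' own comparison were not used.

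Groups came from sample titles. The 9 genes and the gene lists were chosen with earlier results of these data known. Counts on unannotated loci (26345 of 81881 rows, 0.0508 to 0.121% of a library) were left out. Gene counts were tested with edgeR 4.0.16 (R 4.3.3; quasi-likelihood, robust, TMM, filterByExpr, 1 mean per group over all 12 libraries), with Benjamini-Hochberg adjustment over 18817 genes and a threshold of 0.05. The script was tested on simulated data. CPM used TMM library sizes, except for marker sums, which used total counts. FPKM were summed by gene name. Counting error alone puts the floor of 3 counts at 0.0609 to 0.125 CPM. Isoform shares were tested by exact permutation (Python 3.11, genes with at least 20 counts on average in each group). Named were all 9 genes, in each list and comparison the 2 called genes with the largest absolute log2 fold change at a mean log2 CPM above 1 (and Il10rb, Ifngr2 and Tgfbr1, added as partner chains after their values were seen), and the 3 genes most like each receptor at a mean log2 CPM above 3. Alternatives were DESeq2 1.42.0, limma 3.58.1 on log2(FPKM + 1) and log2(FPKM + 0.1), other scalings and filters, and leaving out each library.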

Additional observations from a re-analysis of the deposited data

Results flagged for a closer look

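Of 50 groups of 5 libraries examined (9 genes and 16 isoform shares, in Ag and in Ag+Costim), 5 had a library far from the other 4 by Dixon's test, and chance flags about 1 in 20. All 5 are isoform shares. The flagged shares of Ifngr1 are nearly complements of each other in the same library, and those of Tgfbr2 are complements. The flags are therefore not independent, and their number cannot be set against that rate. Replicate 2 of Ag+Costim held 71.8% of Ifngr1-201 and 27.6% of the decay-annotated Ifngr1-203, against 86.3 to 90.7% and 9.04 to 13.4% in the other Ag+Costim libraries. Replicate 4 of Ag, the shallowest library, held 81.5% of Il18r1-202 against 54.7 to 61.1% in the other Ag libraries. Replicate 1 of Ag+Costim, which was also the lowest library of its group for 7 of the 9 genes, held 78.3% of Tgfbr2-202 and 21.7% of Tgfbr2-201, against 88.9 to 90.5% and 9.49 to 11.1% in the others.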

How the results depend on the processing

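Between Ag+Costim and Ag, the fold changes of Il12rb1, Il12rb2, Il18rap, Il27ra, Il10ra and Tgfbr2 kept their direction and their call under all 22 alternatives, with Il12rb2 between 3.14 (limma on log2(FPKM + 1), a scale that understates low genes) and 4.80. For Ag against Naive, the count of receptor genes called, 7, was 3 with a replicate block, 4 with limma on log2(FPKM + 1) with or without a filter, and 3 to 7 when 1 library was left out. The same-numbered libraries were not taken as paired: their deviations correlated at 0.0159 to 0.0951, and 3 of 5 correlated best with their own number. In the replicate block the counts of receptor genes called were 8 for both other comparisons, and it gave 0 isoform shares, where no sign-flip p can be below 0.0625. The isoform count, 3, ran from 0 to 6 when 1 library was left out, and the cause was not tested. The total number of pathway genes called stayed within 1.5 times the reported one in each comparison (39 to 51, 38 to 58 and 41 to 59 for Ag+Costim against Ag, Ag against Naive and Ag+Costim against Naive), but counts in 1 direction and counts within single lists moved further, among them the genes higher in Ag than in Naive (22, with 12 to 27 under the alternatives). Of the named pathway genes, the calls of Csf1r (Ag+Costim against Ag, with the replicate block), Il31ra (Ag against Naive, in the FPKM fits) and Tab2 (Ag+Costim against Naive, without Naive replicate 2) were lost. The fold change of Il10ra for Ag against Naive, −0.01, turned positive under upper-quartile scaling (0.034), with no filter on low counts (0.00144), with a length-trend offset (0.051) and without Ag replicate 1, 2 or 3 or Naive replicate 1, within a range of −0.171 to 0.0702 over the libraries left out. Depth limits the low genes: Il12rb2 in Ag rests on 42 to 169 counts a library.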
